A study of Mus musculus with 8 samples.

Results

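The mRNA and chromatin immunoprecipitation (ChIP) data of 10 mouse genes were examined: Creb1, Crtc2, Crem, Creb3l3, Ppargc1a, Sik1, Nr4a1, Cebpb, Klf15 and Klf9. They are the CREB factors, the CREB coactivators and the fasting-linked transcription regulators of the liver, and were chosen by name. All 10 were among the 27277 rows of the gene count table, and all 10 were among the 15135 genes with enough counts to be tested. The study took primary hepatocytes from mouse liver, cultured them for 24 h, and gave every culture 100 nM glucagon for 12 h. The 3 control RNA libraries came from mice with genotype Lcmr1f/f, whose Lcmr1 gene carries recombination sites, and the 3 knockout RNA libraries from mice with genotype Lcmr1f/f * albumin-cre. Med19, formerly named Lcmr1, belongs to the Mediator complex, which links transcription factors to RNA polymerase II. The albumin promoter drives Cre in hepatocytes, so other liver cells in a culture would keep the gene. Controls carry the same floxed allele and received the same hormone, so no comparison here measures the response to glucagon. There was 1 ChIP library of each genotype. The series' design text names Lcmr1 as the ChIP target while the titles of both ChIP samples name "RNA poll III", so the precipitated protein is not settled here and the regions are called ChIP regions throughout.

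Glucagon is the hormone of fasting. It raises cyclic AMP in hepatocytes, protein kinase A then phosphorylates CREB, and the coactivator CRTC2 loses inhibitory phosphates, enters the nucleus and joins CREB on genes of glucose production. Some targets of CREB act on the same pathway: PGC-1 alpha extends the response, whereas SIK1 phosphorylates CRTC2 and holds it in the cytoplasm. RNA counts read the transcripts of these proteins and not their phosphorylation, cleavage or location.

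The 6 RNA libraries held 22191786 to 26595249 counts. The labels do not tie the libraries to different mice; the p-values therefore speak of the spread among these libraries, and that spread may be technical. Med19 lay at 7.50 to 13.4 CPM, which are counts relative to the TMM-scaled library size, in the controls and 2.91 to 5.27 CPM in the knockouts, a log2 fold change of -1.50 (SE 0.31, edgeR adjusted p = 0.012). With 1 library left out, the Med19 value ranged from -1.84 to -1.30, and the highest edgeR adjusted p was 0.0505. Control 1 stood apart from its group: 98 genes were at least 4-fold higher and 36 at least 4-fold lower in it than in both other controls, against 0 such genes in Control 2 and in Control 3. In the knockouts the same measure gave 0 higher and 1 lower in Knockout 1, 8 and 0 in Knockout 2, and 1 and 13 in Knockout 3. Nr4a1 and Sik1 were among the 98, as were Fos, Junb, Igfbp1 and Gadd45a. Klf15 moved the other way in Control 1. Results for the 10 genes are therefore given with and without that library. Control 1 was singled out from these same counts, so p-values from fits without it are not independent support. The cells matched their label in that 9 of 9 hepatocyte markers were detected, with a summed level of 108000 to 111100 CPM in the controls and 26120 to 35580 CPM in the knockouts; all 9 fell. Of 14 macrophage and Kupffer cell markers 10 rose and 0 fell, with summed levels of 430.0 to 528.5 CPM in controls and 847.6 to 1003 CPM in knockouts. Of the endothelial, stellate and fibroblast, bile duct, and lymphocyte and neutrophil markers tested, 1 of 8, 1 of 8, 0 of 5 and 0 of 6 rose, and 0 fell. Of all tested genes 12.6% rose. Log2 fold changes above 0 were found for 8, 8, 3 and 4 of these markers, in the same order. Summed stellate and fibroblast levels were 102.1 to 190.6 CPM in controls and 195.7 to 230.5 CPM in knockouts. Endothelial sums were 249.2 to 306.6 and 303.0 to 478.7 CPM. In bulk libraries, fewer cells of a type and less RNA per cell cannot be told apart, and the part of cell makeup in any result on the 10 genes was not tested.

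The promoters bear on the results in that CREB binds the cAMP response element TGACGTCA, or its half-site TGACG, read CGTCA on the other strand. RefSeq promoter windows on GRCm38.p6, the mm10 assembly, were given for 7 of the 10 genes, and 6 of these 7 held at least 1 half-site in the 250 bases before a start site. The full element was found in none of them. Among all 32851 RefSeq windows of that length, 17.8% held a half-site on either strand and 1.55% the full element, of which each half-site is a part. Control ChIP regions overlapped the windows of Klf9, Cebpb, Klf15, Creb1 and a Creb3l3 start, and those of Creb1 and Creb3l3 are not shown. Shown here are the windows of both genes that fell, Klf9 and Cebpb, of Klf15, and of Nr4a1, which held the most half-sites. Each runs 5′ to 3′ in the direction of transcription and ends at the base before the start site, with half-sites in capitals. All 4 genes lie on the plus strand.
Klf9, chr19:23140976-23141225: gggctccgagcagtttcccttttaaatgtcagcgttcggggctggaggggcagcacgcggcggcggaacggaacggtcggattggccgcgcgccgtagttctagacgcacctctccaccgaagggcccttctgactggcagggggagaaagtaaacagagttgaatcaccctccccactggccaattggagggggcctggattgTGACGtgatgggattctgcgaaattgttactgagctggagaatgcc
Cebpb, chr2:167688665-167688914: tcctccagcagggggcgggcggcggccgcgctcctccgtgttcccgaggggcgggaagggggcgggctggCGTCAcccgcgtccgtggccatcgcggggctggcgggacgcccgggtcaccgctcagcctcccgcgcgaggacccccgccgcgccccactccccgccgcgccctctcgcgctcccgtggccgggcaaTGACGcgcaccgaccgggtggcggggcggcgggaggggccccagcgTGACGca
Klf15, chr6:90462326-90462575: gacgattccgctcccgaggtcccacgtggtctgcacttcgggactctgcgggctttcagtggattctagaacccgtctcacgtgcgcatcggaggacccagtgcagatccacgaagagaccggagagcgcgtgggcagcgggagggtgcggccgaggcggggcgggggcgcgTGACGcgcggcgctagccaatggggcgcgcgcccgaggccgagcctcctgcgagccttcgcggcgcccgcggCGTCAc
Nr4a1, chr15:101266596-101266845: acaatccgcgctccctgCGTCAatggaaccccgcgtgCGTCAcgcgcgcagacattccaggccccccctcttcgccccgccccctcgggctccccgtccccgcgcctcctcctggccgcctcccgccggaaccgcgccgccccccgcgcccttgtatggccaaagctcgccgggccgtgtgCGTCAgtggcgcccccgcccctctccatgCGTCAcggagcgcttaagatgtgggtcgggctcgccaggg
Nr4a1 had 4 half-sites, beginning 233, 213, 69 and 40 bases before the start, and 0.137% of all windows held 4 or more. Cebpb had 3, beginning 180, 53 and 7 bases before the start, where 0.688% of windows held 3 or more. Klf15 had 2, at 78 and 6 bases, and Klf9 had 1 at 46 bases. Ppargc1a had 1 half-site at 49 bases, Creb3l3 had 1 at 239 bases before one of its listed starts, and Creb1 had 0. These matches are letters in a window and not measured binding.

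Of the 10 genes, 2 fell in the knockout libraries, Klf9 and Cebpb, and 0 rose (edgeR, Benjamini-Hochberg adjusted over 15135 genes, threshold 0.05). At an unadjusted p under 0.05 the counts were also 2 lower and 0 higher, where 5990 of all 15135 tested genes passed in either direction. DESeq2 and limma-voom each called 2 lower and 0 higher. Of all tested genes DESeq2 called 2402 lower and 2193 higher, and limma-voom 1939 and 1836. Scaled by library size alone, which moved the median of all genes up by 0.588 on the log2 scale, 4 of the 10 rose (Creb1, Crtc2, Ppargc1a and Sik1) and 0 fell. Under that scaling 7711 of all 15135 tested genes rose and 617 fell. With TMM scaling, edgeR called 25.5% of all tested genes, 13.0% lower and 12.6% higher, so 2 of 10 is near the background. The median log2 fold change of the 10 genes was -0.15, with 4 above 0, and that of all tested genes was 0.01. Every knockout library lay below every control library for Klf9 and Cebpb, and above every control for Sik1; over all genes 22.4% separated downward and 23.5% upward. Without Control 1 the calls became 3 lower (Klf9, Cebpb and Klf15) and 2 higher (Sik1 and Ppargc1a), where 16.0% of tested genes fell and 15.3% rose.

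**Figure D1:**
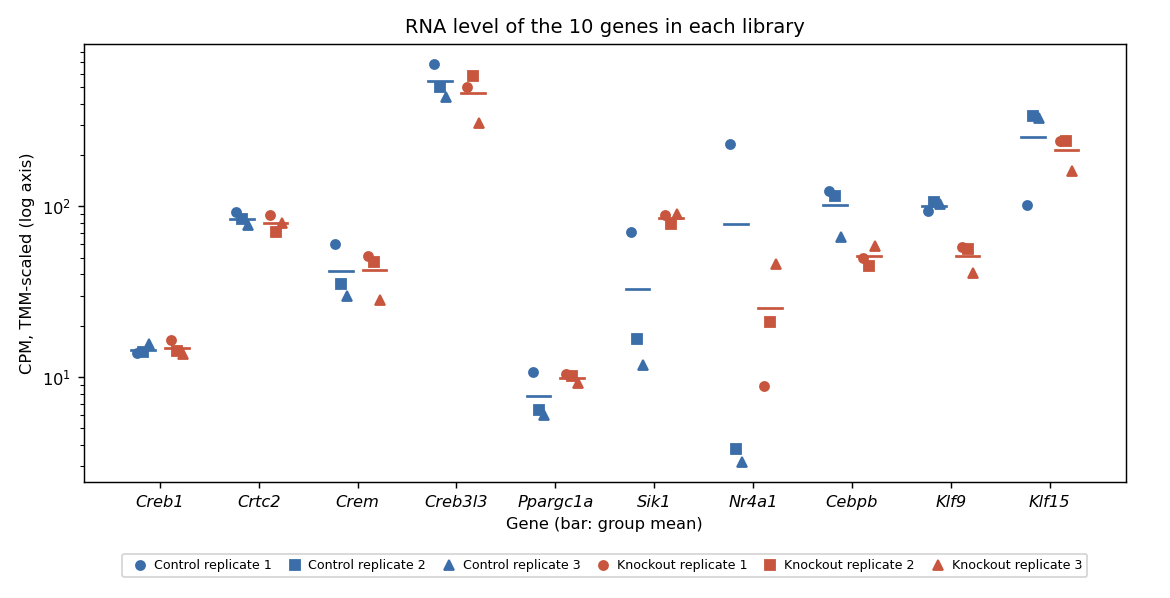
CPM (log axis) of each of the 10 genes in the 3 control and 3 knockout libraries, with each point 1 library and the bar the group mean. Klf9 and Cebpb are lower in all knockout libraries, Sik1 is higher in all of them, and the Control 1 point lies far above the other controls for Nr4a1 and Sik1 and below them for Klf15.

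Creb1 encodes CREB itself, the factor phosphorylated by protein kinase A. Its level was 13.8, 14.0 and 15.6 CPM in Controls 1 to 3 and 16.5, 14.2 and 13.6 CPM in Knockouts 1 to 3. The groups overlapped fully, with both the highest and the lowest library among the knockouts. The log2 fold change was 0.03 (95% interval -0.29 to 0.35, edgeR adjusted p = 0.882). Crtc2, the CREB coactivator that glucagon releases into the nucleus, lay at 92.5, 84.1 and 77.4 CPM in the controls and 88.5, 70.9 and 80.3 CPM in the knockouts. These groups overlapped too, and the difference was -0.08 (interval -0.37 to 0.20, edgeR adjusted p = 0.648). Without Control 1 the values were -0.004 for Creb1 and -0.02 for Crtc2. The SD of log2(CPM + 1) over the controls was 0.09 for Creb1 and 0.13 for Crtc2, where 18.3% and 31.6% of tested genes had a smaller one, and over the knockouts 0.14 and 0.16, where 41.1% and 49.2% did.

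Crem encodes activator and repressor forms of a CREB relative, including the short cAMP-induced repressor ICER, and gene counts do not separate these forms. Its values were 59.9, 35.2 and 29.8 CPM in the controls and 50.9, 47.3 and 28.4 CPM in the knockouts. Control 1 was the highest library and Knockout 3 the lowest, and the groups overlapped. The log2 fold change was 0.02 (interval -0.73 to 0.77, edgeR adjusted p = 0.971), and 0.37 without Control 1 (adjusted p = 0.311). Creb3l3 encodes CREBH, a liver factor held in the endoplasmic reticulum membrane and cleaved during fasting to act on lipid genes. It was read at 683.2, 496.9 and 436.7 CPM in the controls and 499.2, 578.1 and 308.2 CPM in the knockouts. Again the groups overlapped, with Control 1 highest and Knockout 3 lowest, for a difference of -0.22 (interval -0.83 to 0.38, edgeR adjusted p = 0.557). The wider intervals of these genes allow larger differences in either direction than those of Creb1 and Crtc2.

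Ppargc1a encodes PGC-1 alpha, a coactivator of nuclear receptors in gluconeogenesis and mitochondrial gene expression that CREB induces. It was low in every library, at 10.7, 6.39 and 6.03 CPM in the controls and 10.5, 10.1 and 9.23 CPM in the knockouts. Control 1 exceeded all 3 knockouts, whereas Controls 2 and 3 lay below all of them. With all libraries the log2 fold change was 0.37 (interval -0.19 to 0.92, edgeR adjusted p = 0.290) and was not called. Without Control 1, Ppargc1a rose 1.59-fold, with a log2 fold change of 0.67 (interval 0.28 to 1.06, edgeR adjusted p = 0.0178).

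Sik1 and Nr4a1 are early cAMP-induced genes. Sik1 encodes the salt-inducible kinase that opposes CRTC2, and its 3 controls read 70.3, 16.7 and 11.7 CPM while its 3 knockouts read 88.9, 78.8 and 90.0 CPM. All knockouts were above all controls, but Control 1 lay much nearer to the knockouts than to the other controls. The means were 32.9 ± 32.5 and 85.9 ± 6.21 CPM (SD, n = 3 each). The log2 fold change with all libraries was 1.38 (SE 0.69, interval -0.34 to 3.10, edgeR adjusted p = 0.200), which did not pass. Without Control 1, Sik1 rose 6.00-fold, with a log2 fold change of 2.59 (SE 0.17, interval 2.21 to 2.96, edgeR adjusted p = 2.758e-05). Sik1 was itself among the genes that set Control 1 apart, so leaving that library out narrows the control spread by selection. Within the knockouts its level was steady, with an SD of log2(CPM + 1) of 0.11 against 1.32 in the controls, the 110th largest control SD of the 15135 tested genes.

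Nr4a1 encodes an orphan nuclear receptor that cAMP switches on within minutes to hours and that acts on genes of glucose production. It was counted 4737, 79 and 59 times in the controls and 273, 663 and 1469 times in the knockouts, or 230.7, 3.77 and 3.18 CPM against 8.82, 21.1 and 45.8 CPM. Control 1 was the highest of the 6 libraries, Controls 2 and 3 were the lowest, and the knockouts differed among themselves as well. Its control SD of log2(CPM + 1), 3.29, was the 3rd largest of all tested genes. The direction rested on 1 library: the log2 fold change was -1.65 with Control 1 (SE 1.70, edgeR adjusted p = 0.515) and 2.85 without it (SE 0.91, interval 0.30 to 5.41, adjusted p = 0.0914). Neither passed, so these data give no direction for Nr4a1. With all libraries limma-voom also gave a value above 0, at 0.51 (adjusted p = 0.847).

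**Figure D2:**
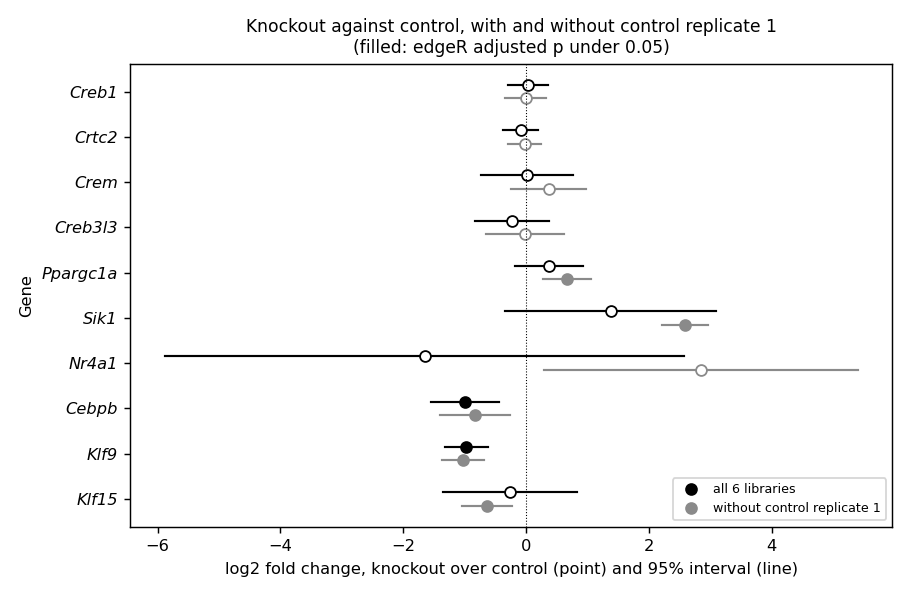
Log2 fold change of each of the 10 genes, knockout over control, with its 95% interval, for all 6 libraries and without Control 1; 0 means no difference. Creb1 and Crtc2 sit near 0 in both fits, Klf9 and Cebpb near -1, and Nr4a1 changes side when Control 1 is left out.

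Cebpb encodes C/EBP beta, a leucine zipper factor that cAMP induces and that acts on genes of gluconeogenesis and the acute phase. Its levels were 123.8, 115.0 and 66.0 CPM in the controls and 49.8, 45.0 and 58.3 CPM in the knockouts. The groups did not overlap, although Control 3 lay closer to Knockout 3 than to the other controls. Cebpb fell 1.99-fold, from 101.6 ± 31.1 to 51.0 ± 6.74 CPM (SD, n = 3 each), a log2 fold change of -0.99 (SE 0.24, interval -1.54 to -0.45, edgeR adjusted p = 0.0206). The call ended without Control 2 (adjusted p = 0.0656), without Knockout 1 (0.0749), without Knockout 2 (0.0750) and with scaling by library size alone (-0.39, adjusted p = 0.172), and held without Control 1 (log2 fold change -0.83, adjusted p = 0.0397). Cebpb shares 908 bases with Tmem189 on the opposite strand. The counting's strand setting was not given in the sources used here, so reads of the pair cannot be told apart on the shared bases. Tmem189 itself read 20.3 ± 7.11 and 12.2 ± 2.62 CPM (edgeR adjusted p = 0.0807).

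Klf9 encodes a zinc finger factor that glucocorticoids induce and that has been tied to gluconeogenic gene expression. It read 93.6, 105.7 and 103.5 CPM in the controls and 57.5, 56.5 and 40.5 CPM in the knockouts. The groups were far apart relative to their spread, with the lowest control well above the highest knockout. Klf9 fell 1.96-fold, from 100.9 ± 6.45 to 51.5 ± 9.56 CPM (SD, n = 3 each), a log2 fold change of -0.97 (SE 0.15, interval -1.33 to -0.62, edgeR adjusted p = 0.00428). Leaving out any single library kept the call, with a log2 fold change from -1.07 to -0.84, and scaling by library size alone ended it (-0.39, adjusted p = 0.0559). In the authors' deposited table Klf9 stood at -0.98 on the log2 scale, with adjusted p 3.72e-06, and was not marked as significant, while Cebpb, at -1.01 with adjusted p 8.987e-04, was marked. The genes nearest to Klf9 in their pattern over the 6 libraries were Spred1 and Spry4, with a root mean square difference in centred log2(CPM + 1) of 0.05 and 0.07 among 9736 genes compared. Those nearest to Cebpb were Senp5 and Map4k4, at 0.18 and 0.19.

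Klf15 encodes a zinc finger factor of fasting that acts on amino acid breakdown and so on the supply of carbon for glucose. Its controls read 101.5, 339.9 and 328.2 CPM and its knockouts 241.6, 242.0 and 160.7 CPM. Control 1 was the lowest of the 6 libraries and Controls 2 and 3 the highest, which placed all knockouts between them. The log2 fold change was -0.26 with all libraries (interval -1.35 to 0.84, edgeR adjusted p = 0.710). Without Control 1 Klf15 fell 1.56-fold, at -0.64 (interval -1.05 to -0.23, edgeR adjusted p = 0.0279). Klf9 and Klf15 thus differed in how Control 1 behaved: their control SDs of log2(CPM + 1) were 0.09 and 0.99.

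The ChIP lists differed greatly in size. The control list held 16995 regions over 10414789 bases and the knockout list 1309 regions over 669222 bases, 13.0 times fewer regions and 15.6 times fewer bases. With 1 library of each genotype there was no replicate and no test, and a region missing from the shorter list is a region not called. At least 1 base of 9 of the 10 genes lay in a control region, against 39.2% of all tested genes and 57.5% of those with a mean of at least 10 CPM. Crtc2 was the exception, with a control region beyond its end at chr3:90265276-90265708. In the knockout list 4 of the 10 genes had a region, Klf9, Klf15, Creb3l3 and Cebpb, against 3.90% of tested genes and 5.90% of those with at least 10 CPM.

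Both KLF genes and Cebpb were covered over much of their length in the control list. Klf9 (chr19:23141226-23166911, plus strand) had 15 control regions over 67.3% of its length and 1 knockout region over 0.382%. That single knockout region, chr19:23141119-23141323, spans the start site and the half-site in capitals in the Klf9 window above, with its summit 5 bases before the start and a fold over background of 5.35 as the authors gave it. The control region there, chr19:23140567-23141417, also held the half-site and had its summit 79 bases before the start, at a fold of 9.45. The last control region of Klf9, chr19:23161793-23169397, was 7605 bases long and ran 2486 bases past the annotated gene end. Thus the ChIP signal of Klf9 in the control list extended from the promoter beyond the gene end, and in the knockout list only the start was called.

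Klf15 (chr6:90462576-90475238, plus strand) had 4 regions in each list, over 83.1% of the gene in the control and 13.4% in the knockout. Its start carried a control region, chr6:90462370-90463841 with a summit 19 bases before the start and a fold of 10.15, and no knockout region. The nearest knockout summit lay 4418 bases into the gene. Cebpb (chr2:167688915-167690418, plus strand) is a short gene and was covered over 100% of its length by 1 control region of 4712 bases that ran on for 3123 bases past the gene. In the knockout list 2 regions covered 77.9% of it, including one at the start, chr2:167688835-167689039. Tmem189, chr2:167642608-167689822 on the minus strand, shares 908 bases with Cebpb and has its own start inside it. The ChIP coverage of Cebpb therefore cannot be assigned to either gene alone. Among genes with at least 10 CPM, 99.7% were covered over a smaller share than Cebpb in the control list and 99.9% in the knockout list. The values for Klf15 were 99.1% and 98.9%, those for Klf9 98.5% and 94.9%, and those for Creb3l3 96.7% and 98.4%. Only 5.90% of those genes had any knockout region, so a gene with any covered base ranks above all that have none. The 94.9% of Klf9 rests on 98 bases, or 0.382% of the gene.

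Creb3l3 (chr10:81084324-81098874, minus strand) had 4 regions in each list, over 33.1% of the gene in the control and 7.12% in the knockout. RefSeq gives it starts at 81098872 and 81092591, and the control list had a region at the inner start only, with a summit 34 bases upstream of it. Sik1 (chr17:31844248-31855792, minus strand) had 4 control regions over 16.1% of the gene, the strongest with its summit 107 bases from the start at a fold of 7.19, and 0 knockout regions. Nr4a1 (chr15:101266846-101274792, plus strand) had 2 control regions inside the gene, at folds of 3.51 and 3.42, and none over the 4 half-sites shown above. Crem (chr18:3266048-3337748, minus strand) and Creb1 (chr1:64532645-64604548, plus strand) had their strongest control summits near the start, 420 and 191 bases from it, at folds of 8.22 and 7.53. Ppargc1a (chr5:51454250-51567726, minus strand) had 1 control region, 83840 bases from its start, at a fold of 4.17. That region also lies inside Gm42614, annotated on the same strand with 3 counts over all libraries. The Crem region near the start also lies inside Gm6225, annotated on the opposite strand with 28 counts. Neither region can therefore be assigned to 1 gene alone. None of Sik1, Nr4a1, Crem, Creb1, Ppargc1a and Crtc2 (chr3:90254163-90264125, plus strand) had a knockout region over the gene.

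**Figure D3:**
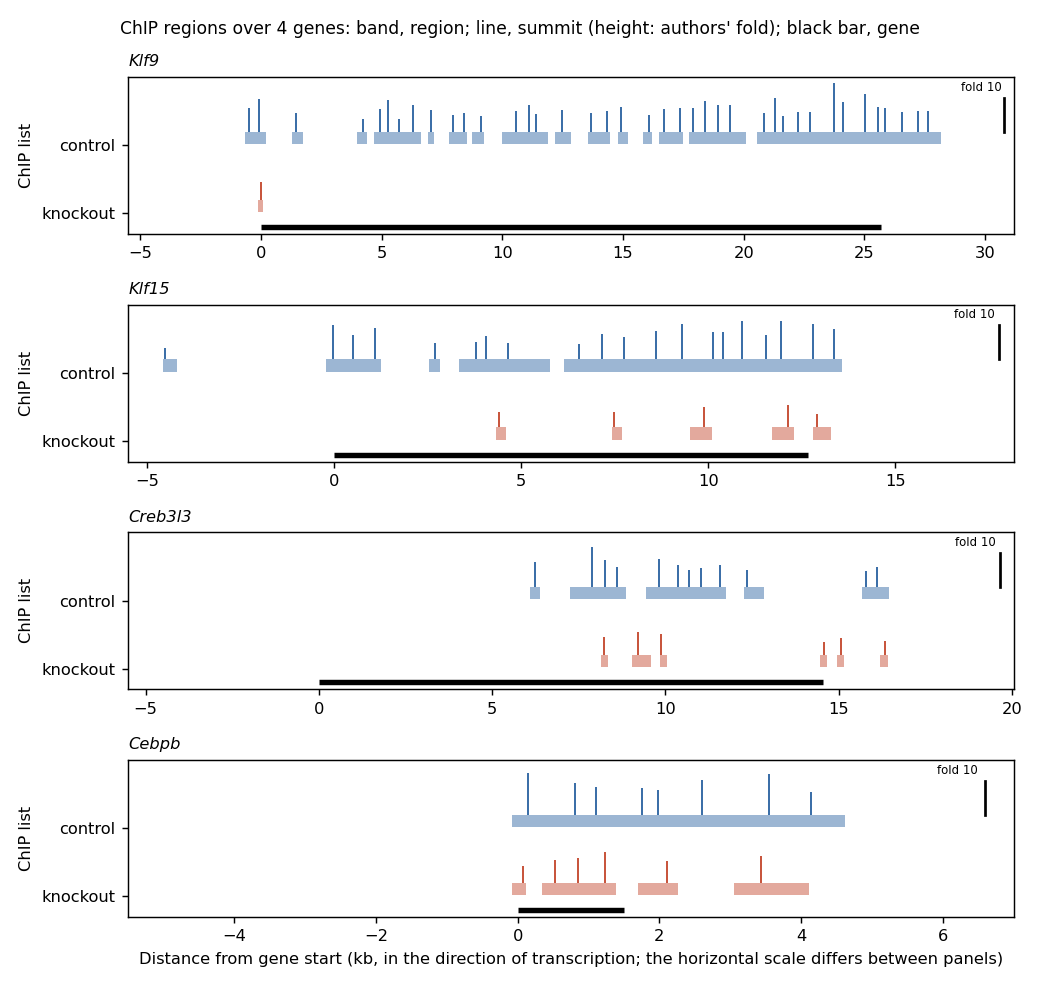
ChIP regions of the control and knockout lists along Klf9, Klf15, Creb3l3 and Cebpb, drawn by distance from the gene's start in its direction of transcription (kb); bands are regions, thin lines are summits with the authors' fold as height, and the black bar is the gene. Klf9, Klf15 and Cebpb carry control regions over 67.3%, 83.1% and 100% of their length, and Klf9 keeps 1 knockout region, at its start.

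The pathway around the 10 genes was read from 8 lists of relatives, kinases and targets. They name 101 other genes, of which 96 were tested. Of these, 7 rose (7.29%) and 13 fell (13.5%), against the 12.6% and 13.0% of all tested genes given above. The same shares of all tested genes are the background for the count of each list below. Of the 20 calls, 12 held whichever single library was left out. The 8 that ended in at least 1 such fit were those of Creb3l1, Sik2, Tat, Per1, Hamp, Fads2, Atp5b and Sgk1, and for these the libraries concerned and the highest adjusted p are given. When counts were scaled by library size alone, 19 of the 20 had the same sign and 15 passed (not Atf1, Gabpa, Hamp, Sik2 and Tat), but the balance turned: 34 listed genes then rose and 8 fell. Among all 15135 tested genes 7711 rose and 617 fell under that scaling.

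Among 18 tested members of the CREB family and its kinase pathway, 3 fell and 1 rose, with a median log2 fold change of -0.05. Scaled by library size alone, 12 rose and 1 fell, where 7711 of all 15135 tested genes rose and 617 fell. Creb3l2, a membrane-bound relative of Creb3l3, fell from 84.1 ± 2.73 to 38.3 ± 10.1 CPM (log2 fold change -1.14, edgeR adjusted p = 0.00434). Atf1, a close relative of Creb1, fell from 39.0 ± 2.30 to 26.3 ± 1.85 CPM (-0.57, edgeR adjusted p = 0.00912), a direction that turned to 0.02 when counts were scaled by library size alone. Sik2, a kinase of the SIK1 family that also phosphorylates CRTC2, fell by 0.79 (edgeR adjusted p = 0.0439), a call that ended without any 1 library but Control 3 (up to 0.139). Creb3l1 rose by 1.08 from a low level of 1.84 ± 0.35 CPM (edgeR adjusted p = 0.0284), not called without Control 2, Control 3, Knockout 1 or Knockout 2 (up to 0.102). None of the coactivator genes Crtc1, Crtc3, Crebbp and Ep300 passed.

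The 19 cAMP-induced genes of hepatocytes included 2 that fell, 1 that rose and 16 that did not pass, with a median of -0.17. Pck1, the enzyme that commits carbon to gluconeogenesis, read 4268, 4695 and 4593 CPM in the controls and 1757, 2245 and 1510 CPM in the knockouts, with no overlap; it fell by 1.30 (edgeR adjusted p = 0.00167). G6pc, which releases free glucose, read 446.9 ± 27.2 and 400.8 ± 89.4 CPM and did not pass (edgeR adjusted p = 0.533). Tat, an amino acid breakdown enzyme, fell by 0.95 (edgeR adjusted p = 0.0106, and 0.0507 without Knockout 1), while the clock gene Per1 rose by 0.69 (edgeR adjusted p = 0.0406), not called without Control 2, Control 3, Knockout 1 or Knockout 2 (up to 0.146). Several genes of this list were, like Nr4a1 and Sik1, high in Control 1. Fos read 30.4 CPM there against 3.43 and 2.37 in the other controls, Junb 490.4 against 85.4 and 75.3, Gadd45a 48.9 against 1.53 and 1.72, and Igfbp1 1114 against 132.1 and 121.5. Without Control 1 the list had 4 genes higher and 4 lower.

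For Creb3l3, whose own transcript did not pass, 4 of 11 listed targets fell and 1 rose, with a median of -0.40, and of 0.14 without Control 1. Of all tested genes 13.0% fell and 12.6% rose. All 9 hepatocyte markers fell too, and whether these targets moved through Creb3l3 was not tested. Apoa5, an activator of lipoprotein lipase, fell by 1.56, the acute phase gene Crp fell by 1.40, and Insig2, a brake on sterol synthesis, decreased by 1.93 (edgeR adjusted p = 0.00269, 0.00579 and 0.00703). The iron hormone gene Hamp fell by 1.57 (edgeR adjusted p = 0.0296), a call that ended without any 1 of the knockouts (up to 0.0934). The desaturase gene Fads2 rose by 0.50 (edgeR adjusted p = 0.0437), which ended without Control 2, Control 3, Knockout 1 or Knockout 2 (up to 0.135). Apoa4 read 51.0 ± 34.5 and 123.0 ± 22.6 CPM, which did not pass with all libraries (edgeR adjusted p = 0.0899) and did without Control 1 (9.157e-05). Among 16 partners and targets of Ppargc1a, 3 rose and 2 fell. Esrra, the nuclear receptor partner of PGC-1 alpha, rose by 1.01 and the citric acid cycle gene Idh3a by 0.59, while Hnf4a, its hepatocyte partner, fell by 1.36 and Gabpa by 0.62 (edgeR adjusted p = 0.00216, 0.00464, 0.00224 and 0.00713). Scaled by library size alone, Gabpa was at -0.03 (edgeR adjusted p = 0.849). Atp5b rose by 0.39 (edgeR adjusted p = 0.0293), called in 1 of the 6 fits that omit a library, the one without Control 1 (otherwise up to 0.130). Members of this list thus moved in both directions.

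Of 7 C/EBP and related genes tested beside Cebpb, 1 fell. Cebpa, which maintains the hepatocyte state, read 838, 670.1 and 701.5 CPM in the controls and 340.4, 314.1 and 256.1 CPM in the knockouts and fell by 1.28 (edgeR adjusted p = 0.00139). Ddit3 and Cebpz came next by p without passing, at -2.32 and -0.61 (edgeR adjusted p = 0.0533 and 0.0541). Among 12 tested relatives of Klf9 and Klf15, 0 rose and 0 fell (edgeR), with a median of -0.20. At an unadjusted p under 0.05 there were 0 higher and 2 lower, where 5990 of all 15135 tested genes passed in either direction. DESeq2 called 2 lower and limma-voom 0. Without Control 1, Klf12 fell by 0.78 (edgeR adjusted p = 0.00815). Klf3, which had the highest mean CPM of the list over the 6 libraries with no correction for transcript length, read 56.6 ± 6.03 and 74.4 ± 17.2 CPM (edgeR adjusted p = 0.146). Of 9 tested genes of the glucocorticoid receptor list, 2 rose, Sgk1 by 1.21 (edgeR adjusted p = 0.0246) and Per1, and 1 fell, Tat. The Sgk1 call ended without Control 3 or any 1 of the knockouts (up to 0.0841). Of 8 listed Klf15 targets of amino acid breakdown, 2 fell, Tdo2 by 1.11 (edgeR adjusted p = 0.00236) and Tat. These lists share Tat, and Per1 is in 2 of them. Tat and Hnf4a are also among the 9 hepatocyte markers, all of which fell.

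**Figure D4:**
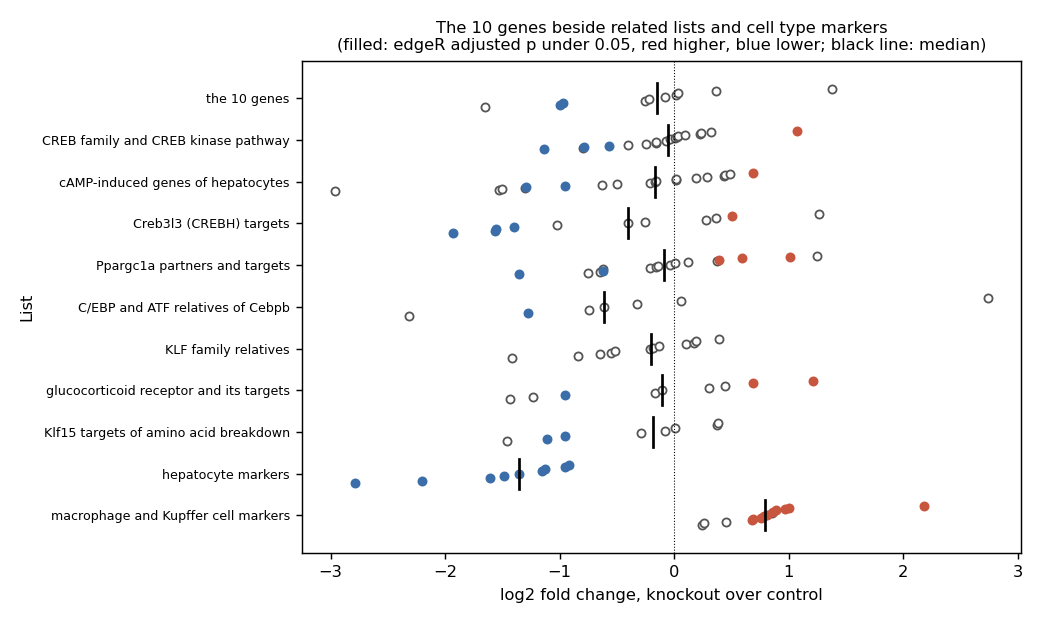
Log2 fold changes of the 10 genes, the 8 pathway lists and the hepatocyte and macrophage markers, knockout over control; each point is 1 gene, filled where edgeR's adjusted p was under 0.05, and the line is the list's median. The 10 genes have a median of -0.15, and the KLF relatives hold no filled point.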

How the data were processed

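RNA counts are whole numbers per Ensembl gene as deposited by the authors, with mm10 positions in the same table; HISAT2 2.1.0, Bowtie2 2.2.3 and HTSeq 0.6.0 appear per the submitters' processing notes (strand setting and read filters: not given in the sources used here). The deposited table also holds the authors' mean signal per gene, fold change (ratio), log2 fold change and p-values. Peak lists, 1 per library, give a score, a fold (ratio) over background, and −log10 p and q per region as deposited by the authors; the submitters' processing notes list MACS2, BWA, SAMtools, deepTools and DESeq2 (use of an input library: not given in the sources used here).

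Counts were TMM-scaled after filterByExpr (minimum 10, total 15) and tested with edgeR 4.0.16 in R 4.3.3 (quasi-likelihood, robust, two-sided, genotype only; Benjamini-Hochberg, threshold 0.05). CPM uses TMM-scaled library sizes, and SDs of log2 values use a pseudocount of 1. The fit was tested on simulated data. Alternatives were other scalings, no filter, DESeq2 1.42.0, limma-voom (limma 3.58.1), each library left out and a replicate block. Overlap with a gene meant at least 1 shared base. Promoter windows and start sites are RefSeq's on GRCm38.p6. Transcript lengths were not used here, so CPM values do not rank genes by level; the naming rule alone used mean CPM over the 6 libraries. All 10 genes and Med19 are named, with the 3 smallest adjusted p of each list (or its gene with the highest mean CPM), each gene of a direction with 5 or fewer calls, and the 2 genes nearest in pattern to a called one; genes high in Control 1, Apoa4, Klf12 and the coactivators that did not pass were named after their values were seen. The 10 genes and all lists were chosen with earlier results of these data known.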

Additional observations from a re-analysis of the deposited data

How the results depend on the processing

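Klf9 kept its direction in all 13 alternative fits and its call in 12, and Cebpb kept its direction in 13 and its call in 8. Scaling by library size alone moved the median of all genes by 0.588 on the log2 scale: 7711 genes then rose and 617 fell (8328 called), 34 listed genes rose and 8 fell, and of the 10 genes 4 rose and 0 fell. Log2 fold changes were then 0.62 for Creb1, 0.97 for Ppargc1a and 2.02 for Sik1, which passed (edgeR adjusted p = 0.00932, 0.00749 and 0.0473), 0.51 for Crtc2 (0.0096), which turned and passed, 0.37 for Creb3l3 and 0.30 for Klf15, which turned, and -0.39 for Cebpb and -0.39 for Klf9, which lost their calls (0.172 and 0.0559). Nr4a1 turned to 0.51 with limma-voom and to 1.26 with the replicate block. DESeq2 called 9 listed genes higher and 21 lower, and of all 15135 tested genes 2193 higher and 2402 lower. Same-numbered libraries had correlations of deviations of 0.134, 0.050 and 0.122 and each correlated best with its own number, a hint from the data only. The block left 1 of the 10 genes lower, ended the call of Cebpb (-0.95, edgeR adjusted p = 0.0549) and left 4 listed genes higher. These counts are given without the share of all genes called with the block. With 1 library left out, ranges were -0.064 to 0.082 for Creb1, -0.18 to -0.02 for Crtc2, 0.21 to 0.67 for Ppargc1a, -0.43 to -0.01 for Creb3l3, -2.43 to 2.85 for Nr4a1, 0.97 to 2.59 for Sik1, -0.18 to 0.37 for Crem, -1.23 to -0.83 for Cebpb, -0.641 to -0.007 for Klf15 and -1.07 to -0.84 for Klf9. Over those fits 2236 to 4921 genes were called, 1119 to 2407 higher and 1104 to 2514 lower; 0 to 2 of the 10 genes rose and 1 to 3 fell; 2 to 14 listed genes rose and 10 to 23 fell. Counting only summits within 1 kb of a start, 2 of the 10 genes had a knockout ChIP region, Cebpb and Klf9. In the control list Creb1, Crem, Sik1, Cebpb, Klf15 and Klf9 had such a summit. The share of all tested genes under this rule was not counted. Each group had 3 RNA libraries and 1 ChIP library, which limits all intervals and leaves the ChIP values without an error. The causes of these shifts were not tested.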
